A study of Mus musculus with 90 samples.

Results

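The replication-dependent histone genes are the clustered genes that supply histone protein while DNA is copied. They were taken as every gene whose name in the count tables starts with Hist1h, Hist2h, Hist3h or Hist4h, which gave 69 genes of the 24961 in the embryoid body (EB) table and the same 69 of the 24984 in the neural progenitor cell (NPC) table. By class there were 6 linker H1, 19 H2A, 19 H2B, 12 H3 and 13 H4 genes. The Hist1 cluster on chromosome 13 held 55 of them, Hist2 on chromosome 3 held 10, Hist3 on chromosome 11 held 3 and Hist4 on chromosome 6 held 1. No newer name of these genes was in use in the tables.

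Libraries were sequenced from J1, an embryonic stem cell line of the mouse used widely for gene targeting, and from 2 kinds of cells made from it by differentiation. The lines labelled CBX7-CaPS, CBX7-mCaPS, CBX7 KO and CBX7-CaPS-R were set against WT. CBX7 is a chromodomain subunit of a Polycomb repressive complex. CaPS stands for a compaction and phase separation region of its paralog CBX2 that was put into CBX7, and mCaPS for a mutated form of it; the labels do not spell out CaPS-R. EBs were grown in hanging drops and sampled on days 0, 6 and 10, and NPCs were made by aggregation followed by retinoic acid and sampled on days 0, 6 and 8, with 3 libraries in each of 30 groups. Stem cells of all lines were kept on embryonic fibroblast feeders, which were taken off before differentiation. The labels say neither how many clones stand behind a line nor whether the 3 libraries of a group come from separate cultures, so p-values measure the spread between these libraries, which may be technical.

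A nucleosome wraps DNA around a core built from the histones H2A, H2B, H3 and H4, and a linker histone H1 sits where the DNA enters and leaves. Most core histones are made in S phase from intronless genes whose mRNAs carry no poly(A) tail. These mRNAs end instead just after a conserved stem-loop. SLBP binds it, and the precursor is cut just downstream with the help of the U7 small nuclear RNA, so the stem-loop stays on the mRNA as its end. Pluripotent stem cells divide fast and spend much of their cycle in S phase, and cells that leave the cycle turn to replacement variants such as H3.3, H2A.Z, macroH2A and H1.0 from genes outside the clusters. The libraries were made from total RNA depleted of ribosomal RNA, without poly(A) selection, so transcripts that end in the stem-loop were kept.

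The stem-loop is shown because it is the end that replication-dependent histone mRNAs share. It was searched for in GENCODE M21 transcripts (GRCm38) as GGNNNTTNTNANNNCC with a stem of 6 pairs, G with T allowed. It was found in 46 of the 69 genes, against 82 of 21810 other protein-coding genes (0.376%). It was present in 4 of 6 H1, 11 of 19 H2A, 10 of 19 H2B, 9 of 12 H3 and 12 of 13 H4 genes. Whole transcripts were searched, so a match need not lie at the annotated end. The annotated transcript ran on for 2445 bases after the match in Hist4h4, 1643 in Hist3h2a and 1153 in Hist1h1e, against 23 in Hist1h2ag and Hist1h2bb. Capitals mark the 16 bases of stem and loop in the sequences of genes described here, and lower case the flanks of 5 bases.
Hist1h1c: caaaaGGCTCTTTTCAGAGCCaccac
Hist1h1e: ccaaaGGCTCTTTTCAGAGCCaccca
Hist1h1t: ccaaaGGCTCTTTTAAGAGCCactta
Hist3h2a: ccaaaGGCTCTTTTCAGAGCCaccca
Hist1h2ag: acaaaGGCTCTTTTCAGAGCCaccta
Hist3h2ba: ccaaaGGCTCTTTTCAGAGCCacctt
Hist1h2bb: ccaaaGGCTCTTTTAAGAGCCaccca
Hist1h3b: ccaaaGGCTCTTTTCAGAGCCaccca
Hist4h4: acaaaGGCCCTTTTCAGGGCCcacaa
Hist1h4d: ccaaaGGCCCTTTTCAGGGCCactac
The core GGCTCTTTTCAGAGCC was the commonest, in 26 genes, and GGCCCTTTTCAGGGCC was found in 7, all of them H4. The search found no stem-loop in the annotated transcripts of Hist1h2aa, Hist1h2ba, Hist2h2be, Hist2h2bb, Hist2h2ab, Hist3h2bb-ps, Hist1h2ah and Hist1h2an, which says only that these letters are not in those transcripts.

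Several H2A and H2B genes lie head to head and share the DNA between them. The tables' coordinates gave 11 divergent pairs with start sites within 500 bases of each other, and all 11 joined an H2A with an H2B gene. Among them, Hist1h2aa and Hist1h2ba are 305 bases apart, and Hist3h2a and Hist3h2bb-ps 172 bases apart. The promoters of the plus-strand gene of these pairs are shown because both genes of each pair moved the same way from day 0 to day 8 in WT of the neural series, as given further on. They run from 250 bases before to 50 after the RefSeq start (GRCm38.p6), at chr13:23934187-23934486 and chr11:58954435-58954734, both on the plus strand. Capitals mark the CCAAT box, the TATA box searched as TATAAA, the octamer ATTTGCAT and the AC box of H1 promoters searched as AAACACA, each on both strands.
Hist1h2aa: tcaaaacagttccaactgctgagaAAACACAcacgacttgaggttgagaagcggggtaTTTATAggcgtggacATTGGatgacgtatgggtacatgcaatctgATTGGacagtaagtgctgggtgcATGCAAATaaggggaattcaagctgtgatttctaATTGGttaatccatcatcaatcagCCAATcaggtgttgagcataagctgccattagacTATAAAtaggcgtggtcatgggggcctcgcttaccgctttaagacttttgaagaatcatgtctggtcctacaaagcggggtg
Hist3h2a: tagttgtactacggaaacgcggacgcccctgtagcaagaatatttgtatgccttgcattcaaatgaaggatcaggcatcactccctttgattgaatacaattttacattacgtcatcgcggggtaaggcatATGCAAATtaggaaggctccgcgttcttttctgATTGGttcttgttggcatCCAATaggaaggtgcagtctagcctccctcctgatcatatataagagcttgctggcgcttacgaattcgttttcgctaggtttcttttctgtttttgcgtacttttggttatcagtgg
A promoter could be matched for 57 of the 69 genes. CCAAT was present in 86.0% of them, in every matched H1, H2A, H2B and H3 promoter and in 3 of 11 H4 promoters, against 37.9% of all 27025 RefSeq promoters of this length, and TATAAA in 59.6% against 14.2%. The octamer, which POU factors bind, was in 22.8% against 1.75%, at 7 of 17 H2A and 6 of 14 H2B promoters and at no other class. AAACACA was in 15.8% against 7.14%, at 5 of 6 H1 promoters among others. These matches describe letters, not bound sites. The promoters are not all separate stretches. Windows of divergent partners overlap, as in Hist1h2ah and Hist1h2bk, so the same octamer can count for both genes. Hist1h2ao and Hist1h2ap were matched to the same promoter.

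Library totals were 10.6 to 55.9 M counts in EB (median 40.6 M) and 11.8 to 59.3 M in NPC (median 39.2 M), and the CaPS-R libraries had their own tables with part of the genes. Levels are CPM, counts relative to the library total, with library sizes scaled by the trimmed mean of M values. The ribosomal precursor Rn45s took 2.73% to 88.7% of counts in EB and 4.24% to 50.3% in NPC. In EB, replicate 1 of WT and CaPS on all days (6 libraries) stood apart in Gapdh and in the makeup of its counts, so EB results are given with and without them where the count moved by over 1.5 times. The EB library of mCaPS day 0 numbered 3, with 88.7% Rn45s, also stood apart. Cbx7 itself did not check the KO label. On NPC day 0 it was at 112, 137 and 119.9 CPM in the libraries labelled KO, against 191, 157 and 162 CPM in WT (log2 ratio -0.47 ± 0.32 SE, adjusted p = 0.413 by edgeR's quasi-likelihood test with Benjamini-Hochberg adjustment). Which part of the gene was changed is not given in the sources used here, so the line is called the one labelled KO.

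A low-count filter left 60 of the 69 genes for testing in both series, 6 H1, 15 H2A, 17 H2B, 10 H3 and 12 H4. The 9 left out were Hist1h2ao, Hist1h2ap, Hist2h2aa1, Hist2h2aa2, Hist1h2bq, Hist1h2br, Hist2h3c1, Hist2h3c2 and Hist1h4m, each with at most 2 counts in any EB library. Near-identical copies bear on all of these values. Of the 50-base windows in a gene's annotated transcripts, the share also found in another gene had a class median of 67.6% in H2A, 62.0% in H3, 44.1% in H2B, 39.5% in H4 and 1.12% in H1. It was over 50% in 33 of the 69 genes and 0 in 4. How reads shared by copies were counted is not given in the sources used here, so genes with a high share are uncertain as single genes.

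Across the 24 groups of the main tables, Hist1h4d, an H4 gene, had the highest level per length, 1238 CPM per kb of gene model as a mean of group means. Hist2h2bb (H2B) followed at 942.3 and the linker genes Hist1h1c, Hist1h1a and Hist1h1d at 706.2, 673.8 and 649.4 CPM per kb. The class medians per kb were 608.0 for H1, 389.2 for H4, 190.7 for H3, 131.4 for H2B and 60.54 for H2A. Thus a typical tested H2A gene stood lowest per length, and only Hist3h2a and Hist1h2ak of that class reached 271.3 and 254.0 CPM per kb. H2A was also the class with the largest median share of windows found in another gene (67.6%), and H1 that with the smallest (1.12%). The part of reads shared by copies in this order of classes was not tested. Hist1h3e and Hist1h3c led the H3 genes at 637.4 and 406.6, Hist1h4k came after Hist1h4d among H4 genes at 695.8, and Hist1h2bb came after Hist2h2bb among H2B genes at 347.6 CPM per kb. At the low end were Hist2h2be, an H2B variant known from olfactory neurons of the mouse (0.5534), and the testis genes Hist1h1t (2.933), Hist1h2aa (6.169) and Hist1h2ba (9.091). The 10 highest genes held 49.8% of the summed CPM and the highest single gene 6.27%, so no single gene carried the sum.

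**Figure D1:**
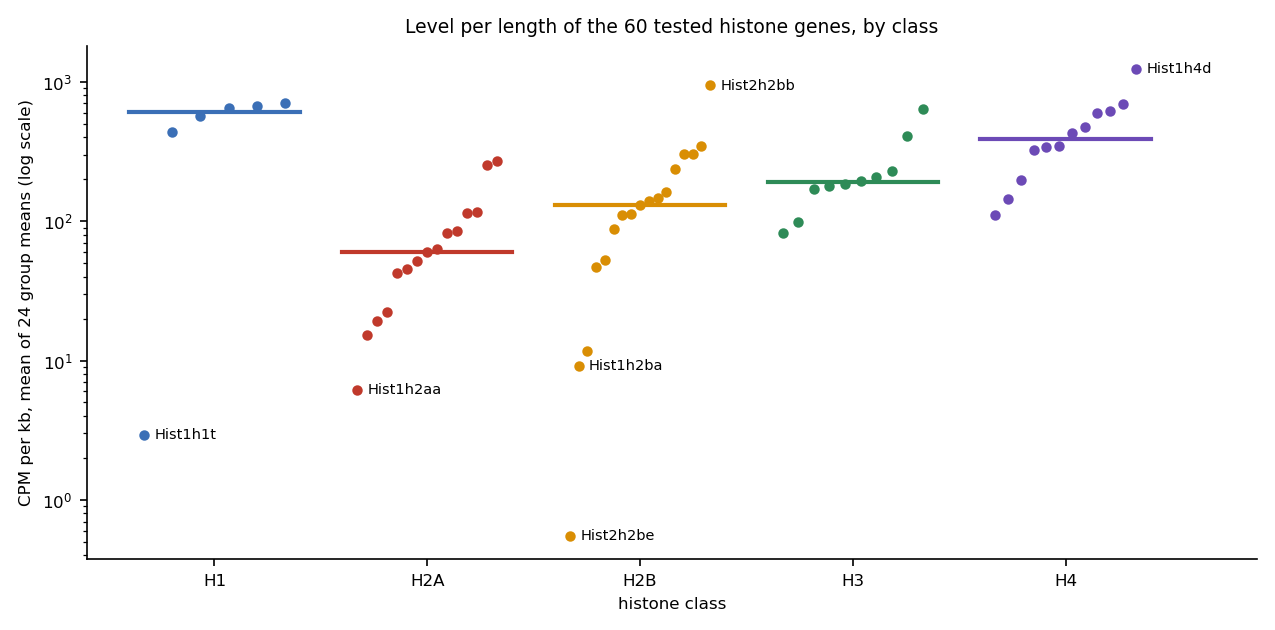
Level per length (CPM per kb of gene model, log axis; mean of 24 group means) of the 60 tested histone genes by class, with a point per gene and a line at the class median. H1 has the highest median (608.0) and H2A the lowest (60.54), while Hist1h4d (1238) and Hist2h2bb (942.3) lie at the top and Hist2h2be (0.5534) at the bottom. Sequence shared between copies differs by class (median 1.12% of windows in H1, 67.6% in H2A), and its part was not tested.

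Most of the genes moved together over the groups. The Spearman correlation of a gene's group means with the summed CPM of the others had a median of 0.794 over the 60 genes (n = 24 group means), and 52 of 60 were above 0.5. These points share libraries and depth, and the correlation is given as a description. The 8 exceptions were Hist1h1t (-0.113), Hist1h2aa (0.00522), Hist2h2be (0.0852), Hist1h2ba (0.278), the linker gene Hist1h1a (0.295) and the H2B genes Hist1h2bn (0.372), Hist2h2bb (0.376) and Hist1h2bj (0.473). Hist1h2aa also had the widest range, 8.81 on the log2 scale between its highest and lowest group mean, before Hist1h2ba with 6.32. Among 17285 other genes the 5 most like the summed level by the same measure were Rnaseh2c (0.834), Gtf3a (0.776), Yeats4 (0.772), Bmyc (0.771) and Sapcd2 (0.75). Pcna, the replication clamp, was at 0.227 and Slbp, the stem-loop binding protein, at 0.0617. Genes looked up by name ran from -0.288 in Npat to 0.563 in Casp8ap2, with Ccna2 at 0.324 and Hat1 at -0.073.

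As a summed level the 69 genes made up 0.3565% to 1.823% of the counts outside Rn45s in EB libraries (median 1.058%) and 0.3056% to 2.019% in NPC libraries (median 1.041%). In bulk RNA, fewer cells in S phase and less histone mRNA per cell cannot be told apart. In WT NPCs the sum was 10541, 5907 and 7971 CPM on day 0, 14756, 11512 and 11658 CPM on day 6, and 16146, 6181 and 13144 CPM on day 8. Day 6 thus lay wholly above day 0, and on day 8 library 2 fell among the day 0 values while the others lay above them. The mCaPS line had 7806, 9370 and 5524 CPM on day 0, 7649, 10684 and 7560 CPM on day 6, and 6316, 5705 and 2649.5 CPM on day 8. Its day 8 sum was the lowest of its 3 days in means, 4890 ± 1964 CPM (SD, n = 3), against 11820 ± 5112 CPM in WT on day 8, and library 1 of mCaPS stood slightly above library 2 of WT. The libraries labelled KO had 4430, 9880.2 and 2538 CPM on day 8, with library 2 far above the other 2. In CaPS the day 8 values were 12760, 5699 and 10901 CPM, within the WT range except for library 2, which lay just below it.

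**Figure D2:**
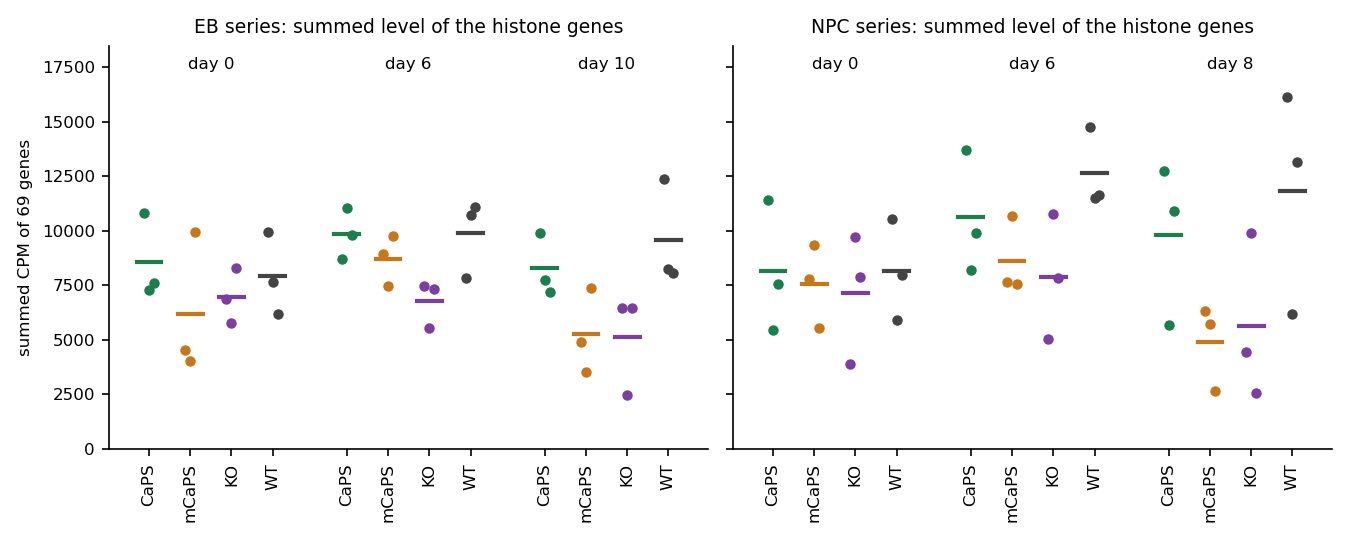
Summed level of the 69 histone genes (CPM) in each library of the EB (days 0, 6 and 10) and NPC (days 0, 6 and 8) series; within a day the lines run CaPS, mCaPS, KO and WT from left to right, points are libraries and lines the means of 3. On NPC day 8 mCaPS lies at 4890 ± 1964 CPM and WT at 11820 ± 5112 CPM (SD), with overlap at the edge; on EB day 10 mCaPS and KO lie at 5248 and 5124 CPM against 9571 CPM in WT.

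The WT neural series asks how these genes behave as stem cells turn into neural progenitors. By day 8 a group of core and linker genes mostly outside the Hist1 cluster was higher than on day 0, and the 3 testis genes were lower. Of the 60 genes 8 were higher and 3 lower at an adjusted p below 0.05, where 52.4% of all 17818 genes tested passed (27.5% higher and 24.9% lower), so the share of histone genes that passed was well under the background. Fold changes were above 0 in 52 of 60, with a median of 0.68 (log2) against 0.05 over all genes tested.

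Among linker genes Hist1h1e, one of the main somatic H1 genes, had 563, 215 and 327 CPM on day 0, 862, 705 and 805 on day 6, and 1083, 534 and 824 on day 8. It was higher on day 8 by 1.14 ± 0.43 (log2, SE; adjusted p = 0.0266), although library 2 of day 8 lay below the highest day 0 library. Hist1h1t, the linker histone of the testis, had 0.326, 0.673 and 0.450 CPM on day 8, against 2.55, 1.14 and 2.97 on day 0, without overlap (-2.18 ± 0.79, adjusted p = 0.0214).

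The Hist3 locus was higher as a whole. Hist3h2a, an H2A gene, had 106, 52.0 and 86.6 CPM on day 0, 209, 155 and 169.9 on day 6, and 263, 126 and 240.2 on day 8 (1.36 ± 0.36 for day 8 over day 0, adjusted p = 0.00212). Hist3h2ba, an H2B gene, had 29.9, 13.0 and 29.0 CPM on day 0, 68.7, 52.2 and 56.1 on day 6, and 159.9, 81.0 and 150.3 on day 8 (2.45 ± 0.56, adjusted p = 0.000568). In Hist3h2ba no 2 days overlapped, and in Hist3h2a day 0 lay below both later days. Hist3h2bb-ps, named a pseudogene, was at 10.9, 7.94 and 17.0 CPM on day 8, against 5.36, 2.34 and 5.69 on day 0 (1.42 ± 0.43, adjusted p = 0.00725). Hist2h2be was at 3.23, 4.87 and 3.38 CPM on day 8, against 0.425, 1.53 and 0.689 on day 0 (2.09 ± 0.47, adjusted p = 0.000479), and it was the one gene higher on day 8 than on day 6 (1.73 ± 0.46, adjusted p = 0.0198, where 4.59% of all genes were higher). Its groups did not overlap in either comparison. Hist2h2ab (1.34 ± 0.42, adjusted p = 0.00909) and Hist1h2bb (0.93 ± 0.36, adjusted p = 0.0303) completed the H2A and H2B genes that rose.

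No H3 gene passed on day 8, and Hist4h4 was the one H4 gene that did, at 449.6, 110.5 and 356.8 CPM on day 8 against 134, 108 and 144 on day 0 (1.25 ± 0.41, adjusted p = 0.013). Library 2 of day 8 stayed within the day 0 range. Of the 10 tested genes outside Hist1, 6 rose with a class-wide median of 1.29, while of 50 in Hist1 2 rose and 3 fell with a median of 0.63. The testis pair fell together. Hist1h2aa had 0, 0.0538 and 0.30 CPM on day 8 (0, 2 and 8 counts), against 3.06, 2.91 and 3.33 on day 0, and day 6 lay between at 0.408, 0.657 and 1.08 CPM. Its fitted ratio of -4.78 ± 0.88 (adjusted p = 4.58e-05) rests on those few counts. Hist1h2ba, its divergent partner, was at 0.475, 0.431 and 0.826 CPM on day 8, against 3.06, 1.74 and 3.30 on day 0 (-2.23 ± 0.60, adjusted p = 0.00255).

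WT day 8 library 2 decided much of this count. Without it 14 genes were higher and 3 lower, and without library 1 of day 8 the total was 6 genes. The shares of all genes given above belong to the fit with all libraries and not to these refits. On day 6, 6 genes were higher and 1 lower (19% of all genes were higher and 18.2% lower): Hist2h2ab (1.46), Hist3h2a (1.13), Hist4h4 (1.11), Hist1h1e (1.10), Hist1h3b (1.26) and Hist1h2bb (0.89) rose, and Hist1h2aa fell (-2.12). Without WT day 0 library 2 the day 6 total was 2. Groups did not overlap in 38 of the 60 genes between days 6 and 0, 37 of them higher on day 6. Over all genes tested 25.5% were wholly higher and 23.8% wholly lower on day 6. The feeder marker list, 10 fibroblast genes, summed to 93.3, 273 and 229 CPM on day 8 against 3436, 1294 and 317 CPM on day 0, and its part in the histone changes was not tested.

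**Figure D3:**
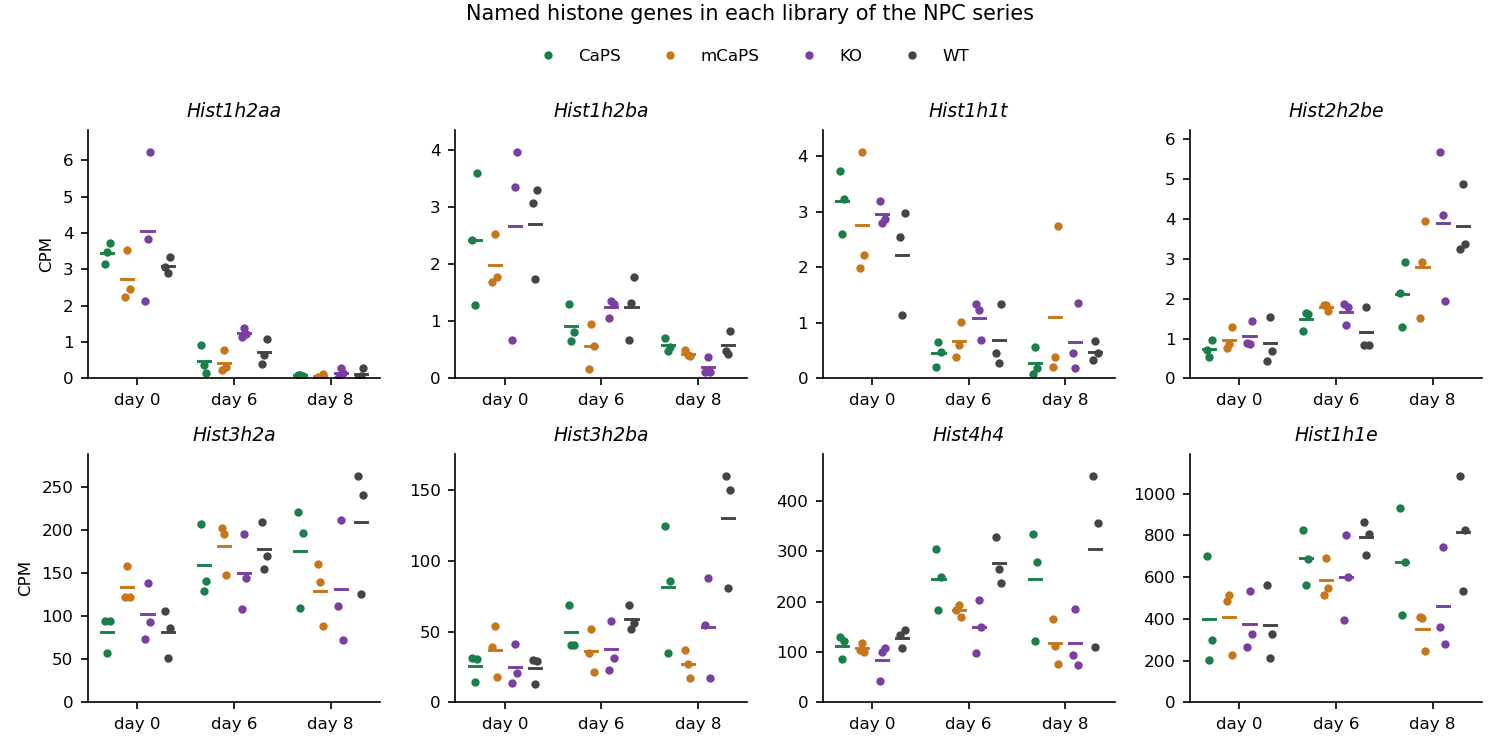
CPM of 8 histone genes in each NPC library (days 0, 6 and 8; lines CaPS, mCaPS, KO and WT from left to right within a day). Hist1h2aa, Hist1h2ba and Hist1h1t are lower on day 8 in the WT libraries, Hist2h2be is higher in all 4 lines, and Hist3h2ba is higher on day 8 in WT (81.0 to 159.9 CPM) but not in mCaPS (17.2 to 36.7 CPM).

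In WT embryoid bodies little passed the test. On day 10 Hist1h2aa was the one gene called, at 0.934, 0.196 and 0.263 CPM against 26.5, 5.95 and 1.37 CPM on day 0 (-4.63 ± 1.09, adjusted p = 0.00186), where 14.5% of all 17791 genes were lower. All day 10 libraries lay below all day 0 libraries, though the library numbered 1 was the highest on both days. Hist1h2aa was also lower on day 10 than on day 6 (-3.36 ± 1.04, adjusted p = 0.0255, where 7.12% of all genes were lower). Its partner Hist1h2ba had 19.3, 1.22 and 2.02 CPM on day 10 against 39.9, 4.53 and 2.89 on day 0, and the groups overlapped because both libraries numbered 1 were far above the rest. On day 6 edgeR called 0 of 60 (7.88% of all genes) and DESeq2 called 0. An unadjusted p below 0.05 was seen for 1 gene, against 3617 of all 17791. Fold changes were above 0 in 53 of 60 genes on day 6 and 49 of 60 on day 10, with medians of 0.42 and 0.37, against -0.02 over all genes on day 10.

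Libraries of equal number deviated together over these WT groups, so fits with the number as a block are given beside them. In those fits 1 gene was higher on day 6 than on day 0, where 5.71% of all genes were. On day 10 against day 0, 9 were higher and 2 lower (19.3% and 18.5% of all genes), and against day 6, 5 were lower (16.9% of all genes). None of these shares of the 60 was above that of all genes. Without the 6 libraries numbered 1 the counts on days 6 and 10 against day 0 were 1 and 2. High library-1 values were seen for several genes: Hist2h2bb had 1634, 445 and 418 CPM on day 0, and Hist4h4 had 1027, 241 and 184 CPM on day 10.

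Hist1h2aa was lower on EB day 10 than on day 0 in CaPS, mCaPS and CaPS-R too, and in KO its adjusted p was 0.0537. Its partner Hist1h2ba passed in CaPS-R but not in CaPS, mCaPS or KO (adjusted p = 0.552, 0.124 and 0.101 by edgeR). Hist1h2aa was lower in CaPS at 1.59, 0.0834 and 0.966 against 21.4, 3.63 and 4.32 CPM (-3.47 ± 1.02, adjusted p = 0.0119), and Hist1h1t was lower too (-1.58 ± 0.59, adjusted p = 0.045), where 12.1% of all genes were lower. With the number as a block 5 genes passed in CaPS, 3 of them higher (13.6% of all genes were higher and 12.2% lower in that fit), and without CaPS day 10 library 2 none did. In mCaPS 5 genes passed (17.8% of all genes were higher and 18.5% lower): Hist1h2aa at 2, 2 and 0 counts on day 10 (adjusted p = 0.000786), Hist1h1a (-1.63) and Hist1h1t (-1.59) were lower, and Hist1h2bg (1.14) and Hist1h1e (0.99) were higher. The day 0 library numbered 3 of that line had no Hist1h2aa count, so its day 0 values of 2.09, 2.77 and 0 CPM touched those of day 10. Hist1h1a was at 258, 256 and 320 CPM on day 10 and at 376, 320 and 1896 CPM on day 0, so its day 0 mean was set by library 3, and without that library its change was -0.34 (adjusted p = 0.576). Hist1h2bg was at 110.1, 65.6 and 136 CPM on day 10 and at 65.2, 61.3 and 14.1 CPM on day 0, and without the same library its change was 0.70 (adjusted p = 0.167). Hist1h1t was at 0.319 CPM in that library, below all 3 day 10 values. Without mCaPS day 0 library 3 the count was 3, and without mCaPS day 10 library 1 it was 2.

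In the EB libraries labelled KO all calls were lower. On day 10, 6 of 60 genes were lower than on day 0, a share close to the 9.87% of all genes that were lower. None was higher, where 15.5% of all genes were. Fold changes were above 0 in 4 of 60, with a median of -0.59 against 0.05 over all genes. Those that fell were Hist1h2ai (-2.72 ± 0.86, adjusted p = 0.0203), Hist1h2af (-1.62), Hist1h2an (-1.46), Hist1h2bc (-0.98), Hist1h2bh (-1.02) and Hist1h1t (-1.60). The H2A gene Hist1h2af had 12.8, 2.51 and 28.2 CPM on day 10 and 41.0, 41.2 and 51.5 CPM on day 0. Day 10 library 2 was the lowest, a library with a summed H2A level of 72.9 CPM, Rmrp at 504 CPM and Rn45s at 3.87%. Without it, or without day 0 library 3, the count was 0. With the number as a block it was 12 of 60, all lower, a share no higher than that of all genes in that fit (21.4% lower). Without the 6 libraries numbered 1 of WT and CaPS, which share the fit, it was 14, and the share of all genes in that refit is not given here.

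In CaPS-R, fitted alone on the 40 tested genes of 46 in its tables, 7 genes were higher and 2 lower on EB day 10 than on day 0 (12.7% of all genes were higher and 8.78% lower). Hist1h1e (0.72, adjusted p = 0.00624), Hist1h4h (1.14), Hist1h3e (1.99), Hist1h3c (1.50), Hist1h3a, Hist1h3f and Hist1h2bg were higher, and Hist1h2aa (-3.73 ± 0.99, adjusted p = 0.0176) and Hist1h2ba (-2.93 ± 0.84, adjusted p = 0.0251) lower. Day 10 library 3 stood apart in the H3 genes, with a summed H3 level of 447.8 CPM, against 73.1 and 103.1 CPM in the other day 10 libraries. Hist1h3e, an H3 gene, had 21.1, 39.1 and 143.6 CPM on day 10 and 20.7, 13.2 and 17.6 CPM on day 0, and without that library its change was 0.75 (adjusted p = 0.203). The count was 17 without day 10 library 1 and 2 without day 10 library 3. Without library 3 Hist1h1e still passed (0.71, adjusted p = 0.0197 by edgeR). Hist1h2aa and Hist1h2ba then changed by -3.65 and -2.87 and did not pass (adjusted p = 0.0675 and 0.0855 by edgeR). Nor did Hist1h4h, Hist1h3c, Hist1h3a, Hist1h3f and Hist1h2bg.

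**Figure D4:**
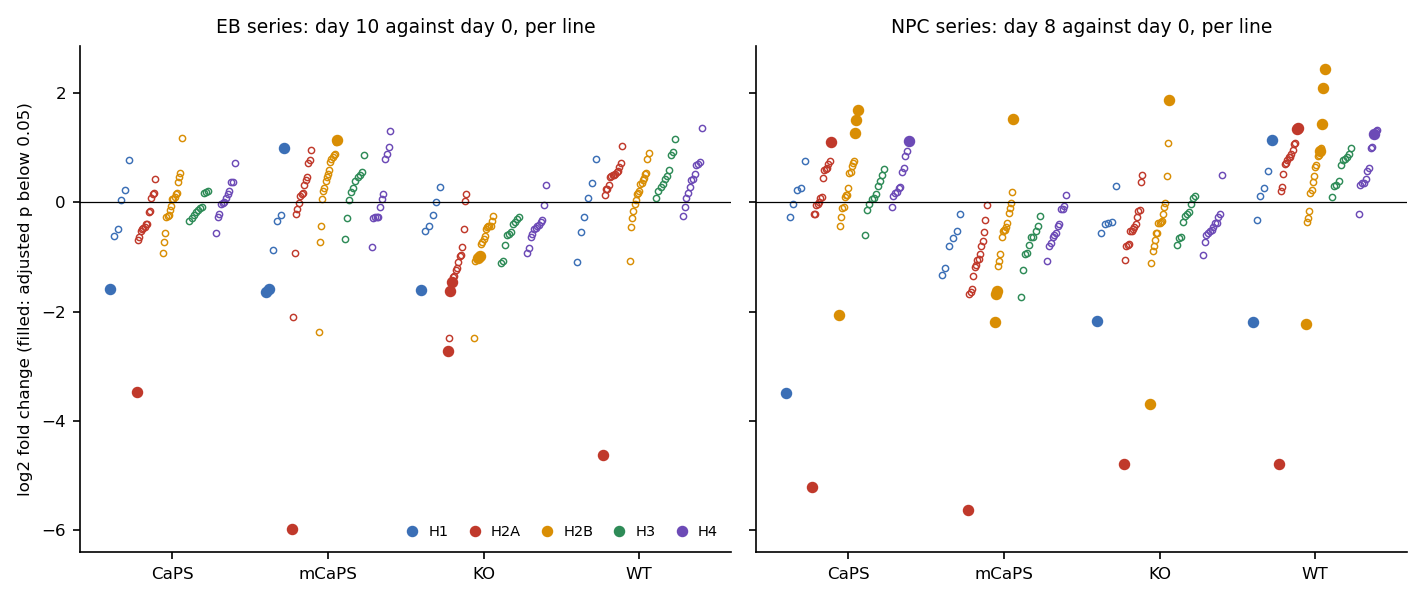
Log2 fold change of each tested histone gene on the last day (EB day 10, NPC day 8) against day 0 in each line, coloured by class; filled points have an adjusted p below 0.05. Medians lie above 0 in WT (0.37 in EB, 0.68 in NPC) and below 0 in NPC mCaPS (-0.64) and KO (-0.39).

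In the neural series Hist1h2aa and Hist1h2ba fell and Hist2h2be rose by day 8 in CaPS, mCaPS and the line labelled KO as well as in WT. Hist1h2ba was lower by -2.07 ± 0.59 in CaPS, -2.19 ± 0.59 in mCaPS and -3.69 ± 0.65 in KO (adjusted p = 0.00446, 0.00352 and 4.04e-05). Hist2h2be was higher by 1.51 ± 0.47, 1.52 ± 0.46 and 1.87 ± 0.46 in the same lines (adjusted p = 0.0084, 0.00779 and 0.00162). Hist1h2aa ended at 0.0969, 0.10 and 0.0755 CPM in CaPS, at 0.0418, 0 and 0.129 CPM in mCaPS and at 0, 0.283 and 0.139 CPM in KO. No day 8 library overlapped a day 0 library for it in any of the 4 lines.

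CaPS NPCs also had higher Hist3h2ba (1.69), Hist3h2a (1.10), Hist3h2bb-ps (1.27) and Hist4h4 (1.12), for 5 higher and 3 lower in all (26% and 22.6% of all genes). In mCaPS the remaining calls were losses, Hist2h2bb and Hist1h2bj, for 1 higher and 4 lower (24.7% and 21.5% of all genes). Hist2h2bb, the highest H2B gene, had 285, 140.3 and 69.5 CPM on day 8 against 451, 541 and 534 on day 0 (-1.62 ± 0.49, adjusted p = 0.00794), without overlap. Fold changes were above 0 in 3 of 60 genes in mCaPS (median -0.64) and in 9 of 60 in KO (median -0.39). The KO libraries gave 1 higher and 3 lower (23.3% and 20.1% of all genes), and without KO day 8 library 2 this turned into 32 genes, 31 of them lower. These shares of all genes belong to the fit with all libraries and not to that refit. In CaPS-R 6 were higher and 3 lower (25% and 22.7% of all genes), led by Hist1h1e (1.37 ± 0.18, adjusted p = 6.9e-05) and Hist2h2be (2.59, adjusted p = 0.0158); its Hist1h1t had 0, 0 and 1 counts on day 8.

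The direct comparison of lines on the same day asks whether these genes differ between lines. On NPC day 8 deviations of equally numbered libraries from their group means correlated at 0.589, 0.408 and 0.335 between CaPS and WT. Between mCaPS and WT they correlated at 0.166, -0.0284 and 0.0312, and between KO and WT at 0.277, -0.126 and 0.225. The part of the library set in differences between lines was not tested in NPC. On NPC day 8 histone genes of every class were lower in mCaPS than in WT. Of 60 genes 22 were lower and none higher at an adjusted p below 0.05, where 18.5% of all genes passed and 9.06% were lower. By class these were 1 of 6 H1, 9 of 15 H2A, 5 of 17 H2B, 3 of 10 H3 and 4 of 12 H4 genes. The median log2 ratio was -1.35 against 0.00 over all genes, and 1 of 60 was above 0. An unadjusted p below 0.05 was seen for 52 of 60, against 5885 of all 17818 genes.

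Hist3h2ba had 36.7, 27.3 and 17.2 CPM in mCaPS, against 159.9, 81.0 and 150.3 CPM in WT (-2.27 ± 0.55, adjusted p = 0.00606). Hist3h2bb-ps had 5.00, 3.53 and 4.43 CPM in mCaPS, against 10.9, 7.94 and 17.0 in WT (-1.47 ± 0.43, adjusted p = 0.0191). In both genes every mCaPS library lay below every WT library. Hist1h2ad had 5.44, 4.34 and 2.42 CPM in mCaPS, against 28.6, 19.0 and 16.1 in WT (-2.38 ± 0.65, adjusted p = 0.013). Hist1h2ag had 10.7, 10.6 and 3.75 CPM in mCaPS, against 62.1, 17.3 and 48.2 in WT (-2.35 ± 0.69, adjusted p = 0.0183), and Hist1h2bp 24.5, 22.5 and 10.2 CPM against 60.5, 40.8 and 66.4 (-1.55 ± 0.45, adjusted p = 0.0173). These groups did not overlap either, with mCaPS library 3 the lowest each time. Most windows of the H2A genes among these are shared with copies (78.9% in Hist1h2ag, 67.1% in Hist1h2ad), against 22.1% in Hist3h2ba.

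Among the highest genes, Hist1h1c was at 403, 445 and 253 CPM in mCaPS and 797, 498 and 778 in WT, and Hist1h4d at 332, 352 and 135 CPM in mCaPS and 770.4, 267 and 660.04 in WT. WT library 2 was low in both, and in Hist1h4d it lay inside the mCaPS range. Over the 60 genes the groups did not overlap in 27, all lower in mCaPS, which is 45% of them, where 18.3% of all genes tested were wholly lower and 17.9% wholly higher.

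The count of 22 moved with single libraries. Without mCaPS day 8 library 3 it was 0, without WT library 1 it was 1, without WT library 3 it was 4, without mCaPS library 2 it was 5, and without WT library 2 it was 36. The shares of all genes given above do not carry over to these refits. The summed class levels fell in the same direction in each class, with a mean log2 difference between mCaPS and WT of -1.16 in H1, -1.53 in H2A, -1.23 in H2B, -1.43 in H3 and -1.21 in H4 (pooled SD 0.656, 0.522, 0.756, 0.659 and 0.827). mCaPS library 3 had Rmrp at 16252 CPM, against 5714 and 6759 in the other mCaPS libraries, and feeder markers at 2470.4 CPM, against 1058 and 723. Their part in the result was not tested. On days 0 and 6 edgeR called 0 of 60 in mCaPS against WT (3.02% and 2.22% of all genes passed), and DESeq2 called 0. An unadjusted p below 0.05 was seen for 1 gene on each day, against 3007 and 3197 of all 17818. On day 6 the groups did not overlap in 33 of the 60 genes, all lower in mCaPS, where 15.9% of all genes tested were wholly lower, and the median of the 60 was -0.65.

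The change of mCaPS from day 0 to day 8 was set against that of WT as an interaction. Hist3h2ba (-2.90 ± 0.76, adjusted p = 0.0159) and Hist3h2bb-ps (-1.95 ± 0.61, adjusted p = 0.0392) passed, both more negative in mCaPS, as were 4.82% of all genes. In mCaPS Hist3h2ba had 39.3, 53.7 and 17.9 CPM on day 0, 34.8, 51.8 and 21.8 on day 6, and 36.7, 27.3 and 17.2 on day 8. Its level thus stayed in a similar range while that of WT rose at each step. Interactions of CaPS passed in 0 of 60 genes in both series by edgeR and DESeq2, with 0 at an unadjusted p below 0.05 (0% of all genes in both). For KO they passed in 0 of 60 in NPC (0.337% of all genes) and in EB (0.00562%), and for mCaPS in 0 of 60 in EB (0%). DESeq2 called 0 in each. For KO an unadjusted p below 0.05 was seen for 4 genes in NPC, against 1949 of all 17818. In EB it was seen for 10, against 632 of all 17791, and for mCaPS in EB for 0.

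The libraries labelled KO on NPC day 8 had a median log2 ratio to WT of -1.18, close to that of mCaPS, but edgeR called 0 of 60 genes (0.0505% of all genes passed). At an unadjusted p below 0.05 there were 40 of the 60, against 1520 of all 17818 genes tested, and DESeq2 called 1. Hist1h2ag had 3.47, 22.1 and 1.88 CPM in KO, against 62.1, 17.3 and 48.2 in WT, and Hist3h2ba 54.8, 88.0 and 17.1 against 159.9, 81.0 and 150.3. KO library 2 lay within the WT range in both genes and the other 2 below it. Summed H2A was 201, 921 and 154 CPM in KO, against 1529, 672 and 1213 in WT. On days 0 and 6, 0 genes were called in KO (5.52% and 0.0281% of all genes). The number at an unadjusted p below 0.05 was 0 on day 0 and 12 on day 6, against 3762 and 848 of all 17818 genes. DESeq2 called none. A difference between mCaPS and KO was not tested here.

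No histone gene passed between CaPS and WT. edgeR and DESeq2 called 0 of 60 on every day of both series, where at most 0.0112% of all genes passed. The number at an unadjusted p below 0.05 was 1 on EB day 6, against 971 of all 17791 genes, and 0 on the other days. The medians of CaPS over WT were 0.20, -0.08 and -0.16 on EB days 0, 6 and 10, and -0.01, -0.28 and -0.30 on NPC days 0, 6 and 8. Fold changes were above 0 in 46, 19 and 8 of 60 genes on those EB days and in 29, 3 and 2 on those NPC days. With the number as a block 1 gene was higher in CaPS on NPC day 0, where 1.73% of all genes were. The call of 0 does not show that the lines are alike.

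**Figure D5:**
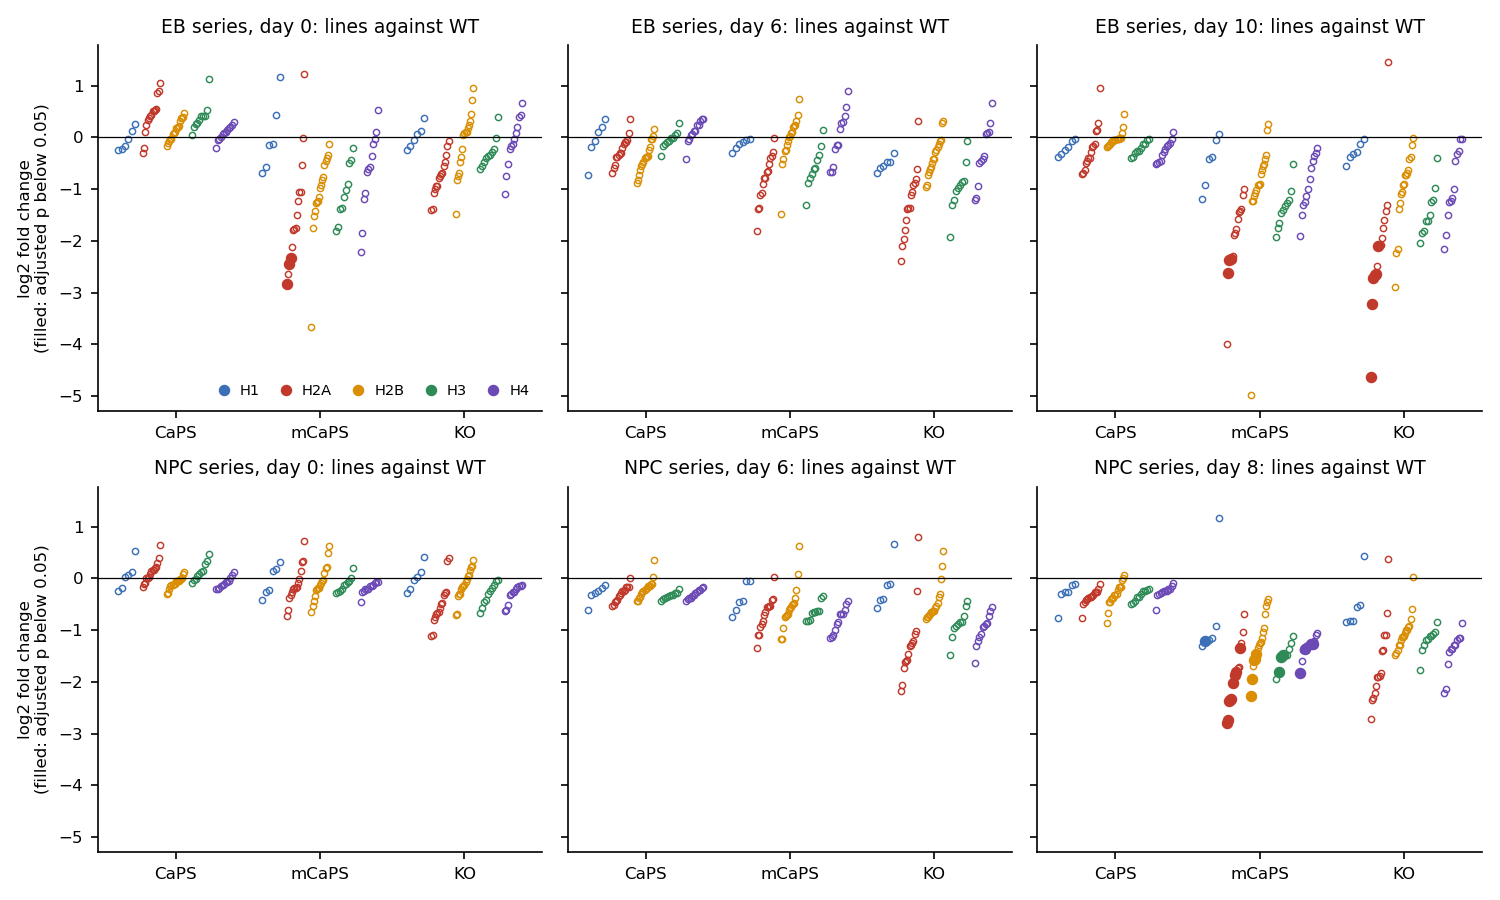
Log2 ratio of each tested histone gene between a line and WT of the same day in both series, coloured by class; filled points have an adjusted p below 0.05. CaPS medians run from -0.30 to 0.20, with most genes below 0 after day 0 and none called. The median of mCaPS on NPC day 8 is -1.35 (22 lower). On EB day 10 those of mCaPS and KO are -1.13 and -1.24 (3 and 6 lower).

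In embryoid bodies the lower calls against WT were H2A genes of the Hist1 cluster. On day 10 Hist1h2ag, Hist1h2ah and Hist1h2an were lower in mCaPS (3 of 60; 0.551% of all genes were lower), and the same 3 with Hist1h2ai, Hist1h2af and Hist1h2ac were lower in KO (6 of 60; 0.624% of all genes). Both comparisons use the same WT libraries. Hist1h2ag had 9.01, 4.30 and 14.3 CPM in mCaPS and 9.05, 1.95 and 10.7 in KO, against 51.1, 56.2 and 34.5 in WT (-2.36 ± 0.50, adjusted p = 0.0099, and -2.71 ± 0.50, adjusted p = 0.00215). Hist1h2ai had 3.03, 0.502 and 5.69 CPM in KO, against 117.7, 52.5 and 58.2 in WT (-4.64 ± 0.94, adjusted p = 0.0061). All groups were apart for these genes. In 36 of 60 genes mCaPS lay wholly below WT on day 10, against 9.46% of all genes tested, and in 33 KO did, against 7.08% of all genes.

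On day 0 the same 3 H2A genes were lower in mCaPS (3 of 60; 0.635% of all genes were lower): Hist1h2an had 2.62, 1.79 and 1.60 CPM in mCaPS, against 10.5, 18.7 and 14.8 in WT (-2.84 ± 0.58, adjusted p = 0.00695). Hist1h2ag was at 9.57, 6.31 and 3.83 CPM, against 51.6, 29.5 and 21.1 in WT. On day 6 edgeR called 0 (0.54% of all genes) and DESeq2 0, with 3 at an unadjusted p below 0.05, against 751 of all 17791 genes. For KO edgeR called 0 on days 0 and 6 (0.641% and 0.646%), and DESeq2 called 0 and 1. An unadjusted p below 0.05 was seen for 2 and 12 genes on these days, against 1230 and 1061 of all 17791.

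These genes are near copies of each other, with 90.7% of windows shared in Hist1h2ah, 90.1% in Hist1h2ai, 85.8% in Hist1h2an and 79.7% in Hist1h2af, so which of them was lower is uncertain, while 14.1% was shared in Hist1h2ac. Summed over the class, H2A was at 310, 190.4 and 601 CPM in mCaPS and 315, 72.9 and 399.6 CPM in KO on day 10, against 1134, 1093 and 1002 in WT. H2A differed most among classes, by -1.71 in mCaPS and -2.36 in KO as a mean log2 difference (pooled SD 0.592 and 0.942). The other core classes were lower too, at -1.32 and -1.47 in H3, -0.985 and -1.23 in H4 and -0.856 and -0.826 in H2B. H1 was at -0.324 and -0.344. The difference between classes was not tested. Gapdh was at 51.07 to 496.3 CPM in WT and CaPS libraries 2 and 3 and 12.82 to 31.3 CPM in mCaPS and KO libraries, so library set and line cannot be told apart in EB. Without the 6 libraries numbered 1 the day 10 counts were 5 in mCaPS and 9 in KO, and those of day 6 were 3 and 4. The day 10 count was 0 without mCaPS day 10 library 1. It was 2 without KO library 2 and 8 without KO library 1. The day 0 count was 0 without mCaPS day 0 library 3.

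CaPS against mCaPS sets the intact domain against its mutated form. On EB day 0, 7 genes were higher in CaPS (as were 0.618% of all genes), Hist1h2an, Hist1h2ag, Hist1h2ah and Hist1h2af with the H3 genes Hist1h3h (2.24) and Hist1h3b (1.93) and the H4 gene Hist1h4j (2.04). Hist1h2an had 21.9, 20.2 and 22.05 CPM in CaPS, against 2.62, 1.79 and 1.60 in mCaPS (3.38, adjusted p = 0.000944). On day 10, 5 were higher (2.7% of all genes), Hist1h2af, Hist1h2an and Hist1h2ah and the testis pair. Hist1h2ba had 18.7, 0.959 and 2.66 CPM in CaPS, against 0.157, 0.162 and 0.387 in mCaPS (4.96 ± 1.29, adjusted p = 0.026), a ratio raised by CaPS library 1. Hist1h2aa was at 1.59, 0.0834 and 0.966 CPM, against 0.0348, 0.0404 and 0. Both lines also differ in library set. Without mCaPS day 0 library 3 the day 0 count was 1, and without CaPS day 10 library 1 the day 10 count was 0.

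On EB day 6 edgeR called 0 (1.12% of all genes), DESeq2 called 0, and without the libraries numbered 1 there were 2 calls. An unadjusted p below 0.05 was seen there for 4 genes, against 2077 of all 17791. In NPC edgeR called 0 on days 0, 6 and 8 (2.1%, 0.0112% and 1.59% of all genes). On day 8 the unadjusted p was below 0.05 for 35 genes, against 3256 of all 17818, and DESeq2 called 4. On days 0 and 6 both counts of histone genes were 0. The day 8 median was 1.11, and 19 of 60 genes lay wholly above mCaPS in CaPS, as did 9.04% of all genes tested.

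Genes that make, carry or replace these histones were counted from lists written from general knowledge. In WT NPCs on day 8 against day 0, where 27.5% of all genes were higher and 24.9% lower, none of 24 S phase genes rose and 11 fell, with a median of -0.56 (0.05 over all genes), among them Ccne1, the S phase cyclin E (-2.76), Mcm2 and Mcm5, parts of the replicative helicase (-1.42 and -1.70), and Cdt1, a licensing factor (-1.44). Of 18 histone chaperones and related genes 1 rose and 9 fell, such as Daxx, an H3.3 chaperone (-1.28), and Hat1, which acetylates new H4 (-1.19). Of 21 genes of histone mRNA transcription and processing 2 rose and 6 fell, with Lsm11, a U7 particle protein, at 1.23 and Zfp473, its partner in processing, at -1.97. Thus the S phase genes that passed were all lower on day 8. At the same threshold 8 of the 60 clustered histone genes were higher and 3 lower, while 52 had a fold change above 0.

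More replacement variants rose than fell. Of 11 tested 5 rose and 2 fell in WT NPCs on day 8 against day 0, where 27.5% of all genes were higher and 24.9% lower. Those that rose were led by H2afy2 and H2afy, the macroH2A genes (2.32 ± 0.29 and 1.80 ± 0.21), and H1f0, the linker histone of differentiated cells (2.56 ± 0.41). In WT EBs on day 10 against day 0, where 14.7% of all genes were higher and 14.5% lower, H1f0 (2.23 ± 0.35) and H2afy2 (2.10 ± 0.37) rose and none fell, 9 of the S phase genes fell with Ccne1 at -2.96, and 6 chaperone genes fell, among them Asf1b (-1.61). Of 6 other RNAs without a poly(A) tail, Rnu12 rose (1.80) and Rnu73b fell (-1.64) in NPCs and none passed in EBs.

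Between mCaPS and WT on NPC day 8, where 22 histone genes were lower and 9.39% of all genes were higher and 9.06% lower, none of the 24 S phase genes and none of the 6 other RNAs without a poly(A) tail passed, and the S phase median was -0.33. Slbp was at 59.2, 51.5 and 39.1 CPM in mCaPS, against 84.7, 51.5 and 70.1 in WT, and Pcna at 67.7, 63.9 and 33.8 against 99.6, 58.5 and 81.4, with overlap in both. Of 21 processing and transcription genes 3 were higher: Hinfp, an activator of H4 genes (0.66), Pou2f1, an octamer-binding factor (0.57), and Lsm11 (0.59). The chaperone genes gave 1 higher, Rbbp7 (1.51 ± 0.28), and 1 lower, Asf1b (-1.27 ± 0.42), and the replacement variants 1 lower, H2afy (-0.59 ± 0.20).

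Markers of other cell types moved with the line on that day, against the same shares of all genes. Of 6 neural genes Tubb3 (-4.79 ± 0.98) and Sox11 (-1.60) were lower in mCaPS, of 6 germ layer genes of EBs 4 were higher (Gata6 at 3.95, Kdr at 3.20, Hand1 at 5.42 and Mef2c at 3.07), and of 10 feeder genes Col3a1, Postn and Col1a1 were higher (3.71, 3.81 and 2.99). The feeder list summed to 1058, 723 and 2470.4 CPM in mCaPS, against 93.3, 273 and 229 in WT, while S100a4, a fibroblast marker on it, was at 0 in mCaPS libraries 1 and 2. The part of a different cell mix in the histone levels was not tested. In the EB comparisons of mCaPS and KO with WT on day 10, H2afz, the H2A.Z gene, was the one gene of all lists to pass (0.708% and 0.877% of all genes passed), lower in both (-3.04 ± 0.46 and -2.76 ± 0.45). Both comparisons use the same WT libraries, and library set and line cannot be told apart in EB.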

How the data were processed

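The 90 libraries were made with a directional kit from total RNA after ribosomal depletion. The values used are raw read counts per gene, as the authors deposited them. The submitters' processing notes name build mm10, featureCounts 1.6.3, STAR 2.7.0, HOMER 4.10.4, cutadapt 1.14 and edgeR; the strand setting of the counting is not given in the sources used here. Left out were rows whose gene name reads as a date (22 per CaPS-R table and 23 in EB), 1 row cut short per CaPS-R table, and 9 columns of a further table that matched no sample. Low counts (1 to 20) were even numbers in 42.13% to 43.47% of cases in replicate 1 of WT and CaPS in EB. In the other WT and CaPS and all mCaPS and KO libraries of EB this share was 73.48% to 94.15%. It was 76.44% to 90.49% in the main NPC libraries. In CaPS-R it was 69.38% to 84.87% in EB and 66.46% to 81.5% in NPC. Counts are not independent molecules.

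Genes with low counts were dropped with filterByExpr, and library sizes were scaled by the trimmed mean of M values in edgeR 4.0.16 (R 4.3.3). Each series was fitted as 1 robust quasi-likelihood model of 36 libraries in 12 groups, and CaPS-R in fits of 9 libraries per series. Comparisons used its F test, two-sided, with p-values adjusted by Benjamini and Hochberg over all genes tested (17791 in EB, 17818 in NPC, 13057 and 12763 in CaPS-R), with a threshold of 0.05. The SE is the unshrunk log2 ratio divided by the root of F. All 44 comparisons were recomputed with DESeq2 1.42.0, other scaling, no filter, Rn45s left out, the library number as a block and each library left out. The script was tested on simulated counts.

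Genes were named by rule: the 2 highest per class, the testis genes, up to 8 per direction in WT on the last day by size of change, up to 5 per direction elsewhere by adjusted p, and up to 4 per gene list. Hist1h2ag, Hist1h1c, Hist1h4d and Hist3h2ba in comparisons where they fall outside this rule were shown after their values were seen. The histone genes and lists were chosen with earlier results of these data known.

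Deviations of equally numbered libraries from their group means correlated above 0.1 in every pair for WT, CaPS and KO over days in EB (0.108 to 0.646) and for CaPS with WT on each day (0.116 to 0.749). The number was taken as pairing only there, from this check and not from the labels.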

Additional observations from a re-analysis of the deposited data

Results flagged for a closer look

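Hist3h2ba and Hist3h2bb-ps changed differently between days 0 and 8 in mCaPS and WT of the neural series, as the interaction test of the difference itself gave: -2.90 ± 0.76 (log2, SE; adjusted p = 0.0159) for Hist3h2ba and -1.95 ± 0.61 (adjusted p = 0.0392) for Hist3h2bb-ps, by edgeR's quasi-likelihood test with Benjamini-Hochberg adjustment over all genes. Every mCaPS library of day 8 lay below every WT library of that day in both genes, and 22.1% and 30.0% of their 50-base windows are shared with other genes. Without WT day 0 library 2 no histone gene passed this test, and without WT day 8 library 2 there were 4. The WT day 0 library 2 held the lowest level of both genes, 13.0 and 2.34 CPM.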

How the results depend on the processing

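Counts below are numbers of the 60 tested histone genes (40 in CaPS-R) that passed, and the cause of each shift was not tested unless fewer libraries set it. Shares of all genes given with the main fits do not carry over to these refits, so the counts alone do not set histone genes apart from other genes. DESeq2 gave 34 for mCaPS against WT and 4 for CaPS against mCaPS on NPC day 8, 1 for KO against WT and 4 for the mCaPS interaction there, and 2 for WT NPC day 8 against 6. In EB it gave 2 for WT day 10 against 6, 14 for CaPS-R, 10 and 9 for mCaPS against WT on days 0 and 10, 1 and 17 for KO against WT on days 6 and 10, and 18 and 8 for CaPS against mCaPS on days 0 and 10. Among all genes it moved the share of calls that were higher to 54.6%, against 30.7% by edgeR, for mCaPS against WT on EB day 0, to 33.7% and 41.8%, against 22.6% and 28.8%, for KO against WT on days 6 and 10, and to 60.5%, against 78.0%, for CaPS against mCaPS on day 0. Without the low-count filter the counts were 1 in CaPS and 5 in CaPS-R over EB days 10 and 0, 3 in WT NPC day 6 against 0, and 9 for mCaPS against WT on NPC day 8. RLE scaling gave 4 for WT NPC day 6 against 0, and leaving out Rn45s gave 2 for WT NPC day 8 against 6.

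With the library number as a replicate block in a fit of the groups compared, EB counts were 1, 11 and 5 in WT (days 6 and 10 against 0, day 10 against 6), 5 in CaPS, 1 in mCaPS, 12 in KO and 1 in CaPS-R for day 10 against 0. Against WT they were 0 and 1 for mCaPS on days 0 and 10 and 1 and 0 for KO on days 6 and 10, and CaPS against mCaPS gave 4 and 0 on days 0 and 10. In NPC the block gave 39, 21 and 3 in WT, 19 in mCaPS, 2 in KO and 16 in CaPS-R over days, 1 for CaPS against WT on day 0, 15 for mCaPS against WT on day 6 and 11 for the mCaPS interaction. It moved no other count by over 1.5 times. Most of these groups share only a number.

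Without replicate 1 of WT and CaPS in EB (6 libraries) the counts were 1 and 2 in WT (days 6 and 10 against 0), 14 in KO over days, 3 and 5 for mCaPS against WT on days 6 and 10, 4 for KO against WT on day 6 and 2 for CaPS against mCaPS on day 6. Chosen after seeing the data, leaving out the 3 NPC libraries labelled KO and numbered 1 gave 2 for day 8 against 0 in KO.

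Leaving out 1 library at a time gave ranges in EB of 1 to 2 (WT day 10 against 0), 0 to 1 (day 10 against 6), 0 to 2 (CaPS), 2 to 5 (mCaPS), 0 to 6 (KO) and 2 to 17 (CaPS-R) over days. Against WT the ranges were 0 to 4, 0 to 1 and 0 to 3 for mCaPS on days 0, 6 and 10 and 0 to 1 and 2 to 8 for KO on days 6 and 10, and for CaPS against mCaPS 1 to 8 and 0 to 6 on days 0 and 10. In NPC they were 2 to 5, 6 to 17 and 0 to 2 in WT (days 6 and 8 against 0, day 8 against 6), 4 to 9 in CaPS and in mCaPS, 3 to 32 in KO and 5 to 9 in CaPS-R. They were 0 to 36 for mCaPS and 0 to 7 for KO against WT on day 8, 0 to 1 for CaPS against mCaPS on day 8 and 0 to 4 for the mCaPS interaction. Of 117 calls of single genes, none reversed in 626 values under other settings, where 100 no longer passed, or in 714 with a library left out, where 314 no longer passed.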

Other observations

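In WT NPCs on day 8 against day 0, H2afv, a replacement gene of the H2A.Z family, was higher by 1.34 ± 0.24 (log2, SE; adjusted p = 3.32e-05 by edgeR's quasi-likelihood test). Among libraries, the NPC libraries labelled KO and numbered 1 had summed H2A levels of 160 to 216 CPM and Rmrp, a small RNA without a poly(A) tail, at 1113 to 1792 CPM. The EB library of mCaPS day 0 numbered 3 had an H1 sum of 5349 CPM beside an H2B sum of 366.6 CPM, Rpph1 at 30832 CPM and feeder markers at 10980 CPM. No explanation of these values was tested.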
